A study of Mus musculus with 46 samples.

Results

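The genes of oxidative phosphorylation were followed through the synovial sarcomas of this series, mouse tumours driven by a human SS18::SSX fusion. They were chosen by name as the protein-coding genes whose symbols carry the prefixes of the mitochondrially encoded subunits (mt-Nd, mt-Co, mt-Cyb or mt-Cytb, mt-Atp), of nuclear complex I (Ndufa, Ndufb, Ndufc, Ndufs, Ndufv), complex III (Uqcr), complex IV (Cox4 to Cox8) and ATP synthase (Atp5), together with Sdha to Sdhd of complex II. This gave 107 of the 56980 genes counted in the hSS2 table and of the 56941 in the hSS1 table. Of these, 13 are encoded by the mitochondrial genome and 94 by the nucleus. The nuclear genes comprised 38 of complex I, 4 of complex II, 8 of complex III, 18 of complex IV and 18 of ATP synthase, and 8 Ndufaf genes, which are complex I assembly factors rather than subunits and share the prefix.

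Oxidative phosphorylation is carried out in the mitochondrial inner membrane. Complexes I and II pass electrons from NADH and succinate through complex III to complex IV, which reduces oxygen, and ATP synthase uses the proton gradient that complexes I, III and IV build. Complex II is wholly nuclear-encoded, whereas the other complexes combine nuclear subunits with a few translated inside the organelle, so that both genomes have to be expressed. Skeletal muscle is rich in mitochondria and uses its own forms of several complex IV subunits.

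RNA of fresh-frozen bulk tumours was sequenced after ribosomal RNA depletion, with 1 library for each of 46 tumours. The hSS2 tumours expressed human SS18::SSX2 and the hSS1 tumours human SS18::SSX1, each started by injecting TATCre protein into the hindlimb of young mouse pups, so that the fusion and any floxed gene recombine in the injected tissue. The hSS2 set held 13 control tumours with the fusion alone, 8 that also carried Pbrm1-fl/fl, 8 with Arid1a-fl/fl and 8 with Arid1b-fl/fl. The hSS1 set held 5 control tumours with the fusion alone and 4 with Pbrm1-fl/fl. The floxed genes encode subunits of the BAF family of chromatin remodelling complexes, which the fusion protein enters (Pbrm1 of PBAF, Arid1a and Arid1b of canonical BAF). All control tumours carried the fusion, so none of the groups is normal tissue. The tumours hold host muscle, vessels and blood cells in unmeasured amounts, and in bulk RNA fewer cells of a type cannot be told apart from less RNA per cell.

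Libraries held 10.6 to 21.3 M counts in hSS2 and 10.1 to 14.1 M in hSS1. Pbrm1 fell in hSS2 Pbrm1-fl tumours (log2 fold change -1.27, SE 0.09, adjusted p = 4.2e-12) and Arid1a in Arid1a-fl tumours (log2 fold change -0.95, adjusted p = 7.0e-05), whereas Arid1b in Arid1b-fl tumours (-0.80, adjusted p = 0.145) and Pbrm1 in hSS1 Pbrm1-fl tumours (-0.75, adjusted p = 0.193) did not pass the test. The library labelled hSS2 control replicate 9 goes against its label, with 238 CPM of Arid1a where the other control tumours held 422 to 587 and the Arid1a-fl tumours 229 to 276. Each sample title opens with a number, called the mouse number below. These numbers coincide with the floxed gene in hSS2. The Pbrm1-fl tumours were all numbered 2000 or above, the Arid1a-fl tumours below 1000 and the Arid1b-fl tumours 1000 to below 2000. The controls were spread over these ranges as 5, 4 and 4 tumours from lowest to highest. In hSS1 all 4 Pbrm1-fl tumours and 3 of 5 controls were numbered 1000 to below 2000. The other 2 controls were numbered 2000 or above. The labels do not say what the numbers stand for, or that they number mice. Values below are CPM, a gene's counts for each M of library counts after TMM scaling, unless called a percent of counts, and a gene is said to rise or fall only where edgeR's quasi-likelihood test gave an adjusted p under 0.05 over all genes of the table.

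Read counts of the mitochondrially encoded genes were very unequal along the genome, and 6 of the 13 were nearly empty. In hSS2 control tumours mt-Co1, the catalytic subunit of complex IV, had a mean of 4945 ± 2083 CPM (SD, n = 13), mt-Cytb of complex III 3228 ± 1151 CPM, and mt-Nd1 of complex I 1845 ± 762 CPM. mt-Nd6, the only one of the 13 on the opposite strand, had 141 ± 30.5 CPM. The 6 adjoining genes mt-Co2, mt-Atp8, mt-Atp6, mt-Co3, mt-Nd3 and mt-Nd4l, at chrM:7013-10173 in GRCm38, had means of only 12.6, 4.44, 9.10, 6.41, 1.22 and 2.71 CPM. They made up 0.243% of mitochondrial gene counts in hSS2 control tumours and 0.406% in hSS1 control tumours.

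Per kilobase of exon, mt-Co1 stood highest of all the genes, at 3200 CPM per kb in hSS2 control tumours, and 7 mitochondrial genes stood above every nuclear one, led there by Atp5b at about 134 CPM per kb. mt-Co2 was at 18.4 CPM per kb, mt-Atp6 at 13.4 and mt-Nd3 at 3.49. The nuclear genome carries copies of that stretch. On chromosome 1 in GRCm38, the annotated pseudogenes Gm28661, Gm10925, Gm28437, Gm28438 and Gm10222 match mt-Co2, mt-Atp6, mt-Co3, mt-Nd3 and mt-Nd4l with 100% identity over 98.3% to 99.9% of each gene, on the opposite strand of the chromosome. The following 60 bases of mt-Nd3 (chrM:9462-9521, plus strand) and of Gm28438 (chr1:24613057-24613116, minus strand), reference sequence that differs at 0 positions, are printed because a read that lies within them matches both places.
mt-Nd3: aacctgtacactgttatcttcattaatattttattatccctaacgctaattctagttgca
Gm28438: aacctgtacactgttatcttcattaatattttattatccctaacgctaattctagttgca

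In the hSS2 tumours the median count of mt-Co2 was 170 and that of its copy Gm28661 was 138, and mt-Atp6 had 127 beside 190 in Gm10925. mt-Co1 has a nuclear copy over only 31.3% of its length, and its median count was 68371 beside 72 in Gm29216. mt-Nd4 has one of 100% identity over 63.6% of its length, Gm28439, and a median count of 16511 beside 89. mt-Atp8, within the same stretch, has no annotated copy of its own. It lies at chrM:7766-7969, between mt-Co2 and mt-Atp6, and overlaps the start of mt-Atp6 at 7927. The copies of those neighbours lie near each other on chromosome 1, where Gm10925 ends at 24614651 and Gm28661 starts at 24614885. Whether the bases between these copies match mt-Atp8 was not examined. The levels of the 6 low genes are taken as uncertain, the part of the copies in them was not tested, and the other 7 carry nearly all of the mitochondrial sum described next. How the authors' counting treated reads with several places in the genome was not given in the sources used here.

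**Figure D1:**
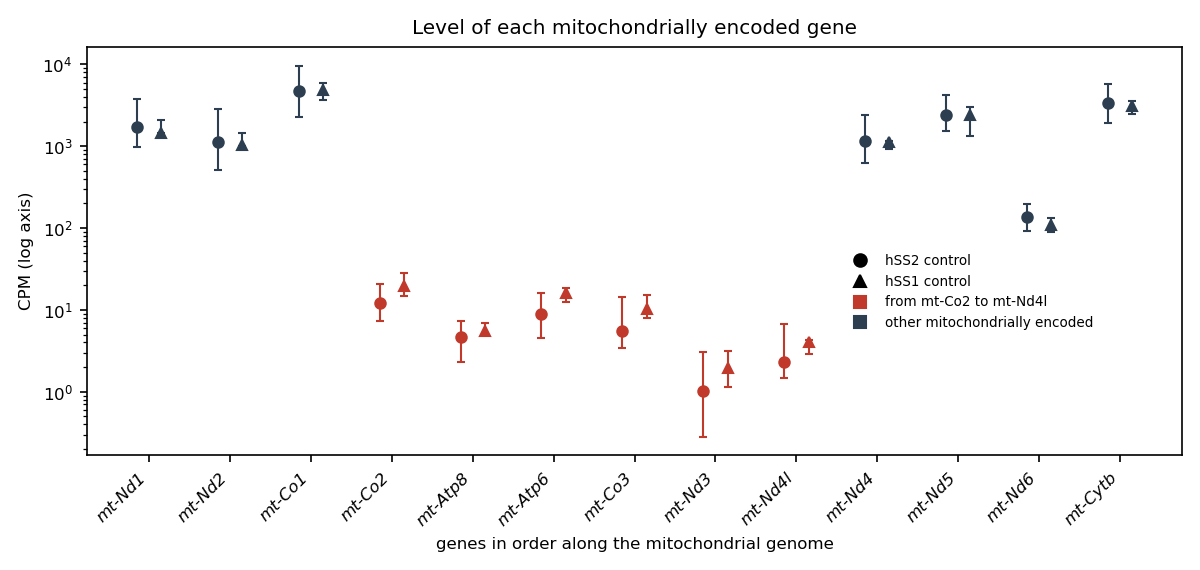
CPM (log axis) of the 13 mitochondrially encoded genes in genome order in hSS2 and hSS1 control tumours; points are medians and bars run from the lowest to the highest tumour. The 6 genes drawn in red, mt-Co2 to mt-Nd4l, sit far below mt-Co1 and mt-Cytb in both sets.

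The mitochondrial share of the libraries was lower on average in Pbrm1-fl than in control tumours of the hSS2 set. The 13 mitochondrial genes took 0.865%, 1.47% and 2.47% of counts at the lowest, median and highest hSS2 control tumour, and 0.953%, 1.12% and 1.33% in Pbrm1-fl, with means of 1.47% ± 0.476 (SD, n = 13) and 1.12% ± 0.105 (n = 8). The Arid1a-fl tumours ran from 0.990% through 1.22% to 1.79%, and the Arid1b-fl tumours from 0.865% through 1.25% to 2.74%. The groups overlapped throughout. Against the 4 controls numbered 2000 or above, whose mean was 1.20%, the Pbrm1-fl difference in this share was -0.08 percentage points in place of -0.35. The 5 hSS1 control tumours had 1.75%, 1.47%, 1.37%, 1.09% and 1.47%, and the 4 hSS1 Pbrm1-fl tumours 1.06%, 1.39%, 1.31% and 1.16%. The difference of means was -0.20 points, or -0.08 against the 3 controls in the number range of the Pbrm1-fl tumours.

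The 94 nuclear genes together took a smaller part of the libraries and did not follow the same order. Their share was 0.478% ± 0.0610 (SD, n = 13) in hSS2 control, 0.553% ± 0.0647 (n = 8) in Pbrm1-fl, 0.528% ± 0.152 (n = 8) in Arid1a-fl and 0.486% ± 0.0703 (n = 8) in Arid1b-fl tumours. Without Arid1a-fl replicate 1, at 0.862%, the Arid1a-fl mean was 0.481% ± 0.0767 (n = 7), near the control mean. In hSS1 the control tumours had 0.516% ± 0.0296 (n = 5) and the Pbrm1-fl tumours 0.442% ± 0.0563 (n = 4). Thus in hSS2 the Pbrm1-fl mean was below control for the mitochondrial sum and above it for the nuclear sum, while in hSS1 both means were below control. No test was made of these sums.

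The ratio of mitochondrial to nuclear counts was formed within each library and so does not depend on its scaling. It ran from 1.90 through a median of 3.26 to 4.38 in hSS2 control tumours and from 1.76 through 1.94 to 2.65 in Pbrm1-fl, a difference of means of -0.54 on the log2 scale, with 8 of 8 Pbrm1-fl tumours below the control median. Against the 4 controls numbered 2000 or above, the range of the Pbrm1-fl tumours, the difference was -0.24. The Arid1a-fl tumours had a median of 2.67 and a difference of -0.27, and the Arid1b-fl tumours a median of 2.63 and a difference of -0.06. Against the controls of their own mouse number ranges these became -0.32 and -0.30, so that with such controls Pbrm1-fl, at -0.24, was the least low of the 3 hSS2 genotypes. In hSS1 the ratio was 3.09, 2.90, 2.78, 2.20 and 2.83 in the control tumours and 2.68, 3.40, 2.52 and 2.63 in the Pbrm1-fl tumours. The log2 difference was 0.02, or 0.11 against the 3 controls in the number range of the Pbrm1-fl tumours.

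**Figure D2:**
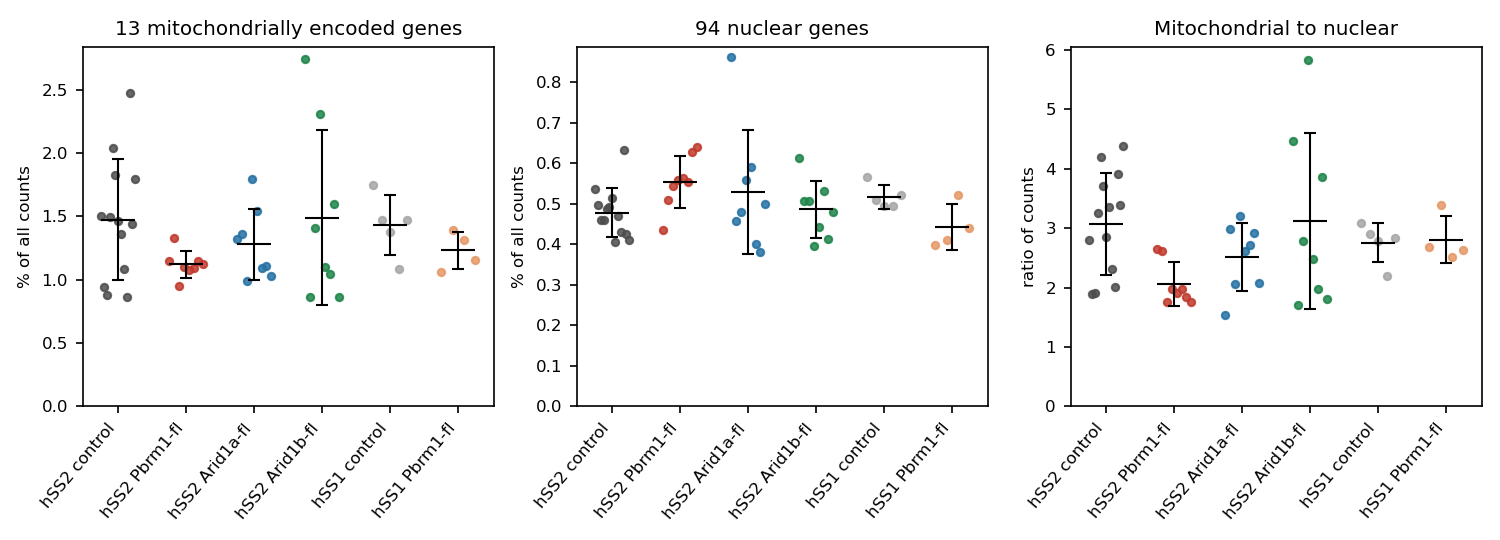
Percent of counts in the 13 mitochondrially encoded genes, percent of counts in the 94 nuclear genes, and the ratio of the former to the latter, for each tumour of the 6 genotype groups; dots are tumours and bars give the mean ± SD. The ratio is lowest in hSS2 Pbrm1-fl (2.06 ± 0.364) and nearly equal in the hSS1 groups (2.76 ± 0.332 and 2.81 ± 0.399).

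Gene by gene, none of the 13 mitochondrial genes passed edgeR's test in any genotype comparison. The 3 hSS2 comparisons use the same 13 control tumours and are given side by side. In Pbrm1-fl tumours 12 of the 13 log2 fold changes were negative, with a median of -0.42 against -0.00 over all genes tested. mt-Co1 was at 3179, 3418 and 4420 CPM at the lowest, median and highest Pbrm1-fl tumour, where the control tumours had 2260, 4724 and 9664 (log2 fold change -0.45, SE 0.24, adjusted p = 0.266). All 8 Pbrm1-fl tumours were below the control median of mt-Co1, but within the control range. mt-Cytb had 1952, 2509 and 3031 CPM against 1904, 3402 and 5806 (-0.36, SE 0.21, adjusted p = 0.310), and mt-Nd1, the first complex I subunit of the heavy-strand transcript, 1078, 1285 and 1465 against 989, 1706 and 3732 (-0.53, SE 0.24, adjusted p = 0.179). mt-Atp6, 1 of the 6 low genes, was at -0.50 (adjusted p = 0.217), and mt-Atp8, beside it, had the smallest adjusted p, 0.0825. DESeq2 called mt-Atp8 lower (log2 fold change -0.75, adjusted p = 0.0439). The median of Ttn, a muscle gene described below, was 6012 CPM in control and 289 CPM in Pbrm1-fl tumours. In the 4 controls numbered 2000 or above it was 394 CPM. The Ttn difference did not pass edgeR's test (adjusted p = 0.758), and the groups overlapped. With Ttn in the model the mitochondrial median was -0.23, against the 4 controls numbered 2000 or above it was -0.16, and the parts of muscle and of mouse number range in it cannot be told apart from that of genotype any further.

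mt-Nd6 was the exception, with 125, 161 and 179 CPM in Pbrm1-fl and 90.9, 136 and 199 in control tumours (log2 fold change 0.17, SE 0.13, adjusted p = 0.456), and 7 of 8 tumours above the control median. In Arid1a-fl tumours all 13 values were negative with a median of -0.19 (mt-Co1 -0.45, adjusted p = 0.252), against -0.04 for all genes. In Arid1b-fl tumours 12 were positive with a median of 0.08, against 0.00 for all genes. In hSS1 Pbrm1-fl tumours all 13 were negative, from -0.35 to -0.03. There the control tumours had 6000, 5169, 4535, 3624 and 4883 CPM of mt-Co1 and the Pbrm1-fl tumours 3187, 3937, 4823 and 3322 (log2 fold change -0.34, adjusted p = 0.390), so that 2 of 4 Pbrm1-fl tumours lay below every control tumour and 2 within the control range.

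Among the nuclear genes of hSS2 Pbrm1-fl tumours 3 rose and 0 fell of 91 tested, Ndufa4l2, Cox6b2 and Atp5d. That is 3 of the 104 members tested, where 7.35% of all genes tested were called (3.40% higher and 3.95% lower), so the number called is not a result about the list. At an unadjusted p under 0.05 there were 24 members, 23.1%, against 22.4% of all genes. They were 7 of the 13 mitochondrial genes (53.85%), all lower, and 17 of the 91 nuclear genes (18.68%), all higher. No test was made of this split. The 3 members not tested in hSS2 were a second identifier for Atp5o, with 0 counts, and Cox7b2 and Cox8c, at 0.00874 and 0.0108 CPM per kb in control tumours. In hSS1, Cox6a2 and Cox8b did not pass the filter either.

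Ndufa4l2, at chr10:127514967-127517154 (GRCm38, plus strand), is the hypoxia-inducible paralog of Ndufa4, a protein first assigned to complex I and now placed with complex IV. It had 6.02, 16.1 and 47.7 CPM at the lowest, median and highest hSS2 control tumour and 17.6, 51.2 and 164 CPM in Pbrm1-fl tumours (log2 fold change 1.59, SE 0.36, adjusted p = 0.00586). All 8 Pbrm1-fl tumours exceeded the control median, and the groups overlapped. The Arid1a-fl tumours had 21.3, 43.1 and 77.1 CPM (1.06, SE 0.36, adjusted p = 0.0855) and the Arid1b-fl tumours 24.3, 33.3 and 91.0 CPM (1.01, adjusted p = 0.683), again 8 of 8 above the control median in each. In hSS1 all 4 Pbrm1-fl tumours were below the control median instead, with 29.2, 27.8, 18.7, 7.36 and 39.8 CPM in control and 19.3, 10.9, 16.7 and 22.7 in Pbrm1-fl tumours. Ndufa4 itself had 22.5, 39.2 and 68.0 CPM in hSS2 control and 26.3, 46.9 and 81.7 in Pbrm1-fl tumours (0.25, not called). Ndufa4l2 made up 33.2% of the 2 paralogs' counts on average in hSS2 control, 54.1% in Pbrm1-fl, 54.8% in Arid1a-fl and 51% in Arid1b-fl tumours, but 27.9% and 36% in the hSS1 control and Pbrm1-fl tumours. Because of their prefix, both paralogs stay in the counts of complex I given here.

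Cox6b2, at chr7:4751792-4753094 (minus strand), is the testis form of the complex IV subunit Cox6b1. It rose from 6.61, 17.2 and 34.2 CPM in hSS2 control to 16.4, 31.6 and 81.3 in Pbrm1-fl tumours (log2 fold change 1.08, SE 0.30, adjusted p = 0.0221), with 7 of 8 above the control median. The Arid1a-fl tumours held a median of 18.1 CPM and the Arid1b-fl tumours 15.3. In hSS1 it was at 18.4, 19.2, 12.4, 14.7 and 20.3 CPM in control tumours and, in Pbrm1-fl tumours, at 18.1, 25.8, 55.9 and 18.0 CPM (0.80, SE 0.35, adjusted p = 0.291). The common form Cox6b1 had a log2 fold change of 0.11 in hSS2 Pbrm1-fl (adjusted p = 0.663).

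Atp5d, at chr10:80138632-80145818 (plus strand), encodes the delta subunit of the ATP synthase central stalk. It had 75.0, 88.6 and 115 CPM in hSS2 control and 89.9, 120.3 and 156 in Pbrm1-fl tumours (log2 fold change 0.41, SE 0.12, adjusted p = 0.0279), and 8 of 8 were above the control median. Without control replicate 9 its adjusted p was 0.0628. None of the 3 genes passed against the 4 controls numbered 2000 or above alone: the values were then 1.92 for Ndufa4l2 (adjusted p = 0.211), 0.61 for Cox6b2 (adjusted p = 0.655) and 0.41 for Atp5d, and mouse number range and genotype cannot be told apart beyond those 4 control tumours.

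**Figure D3:**
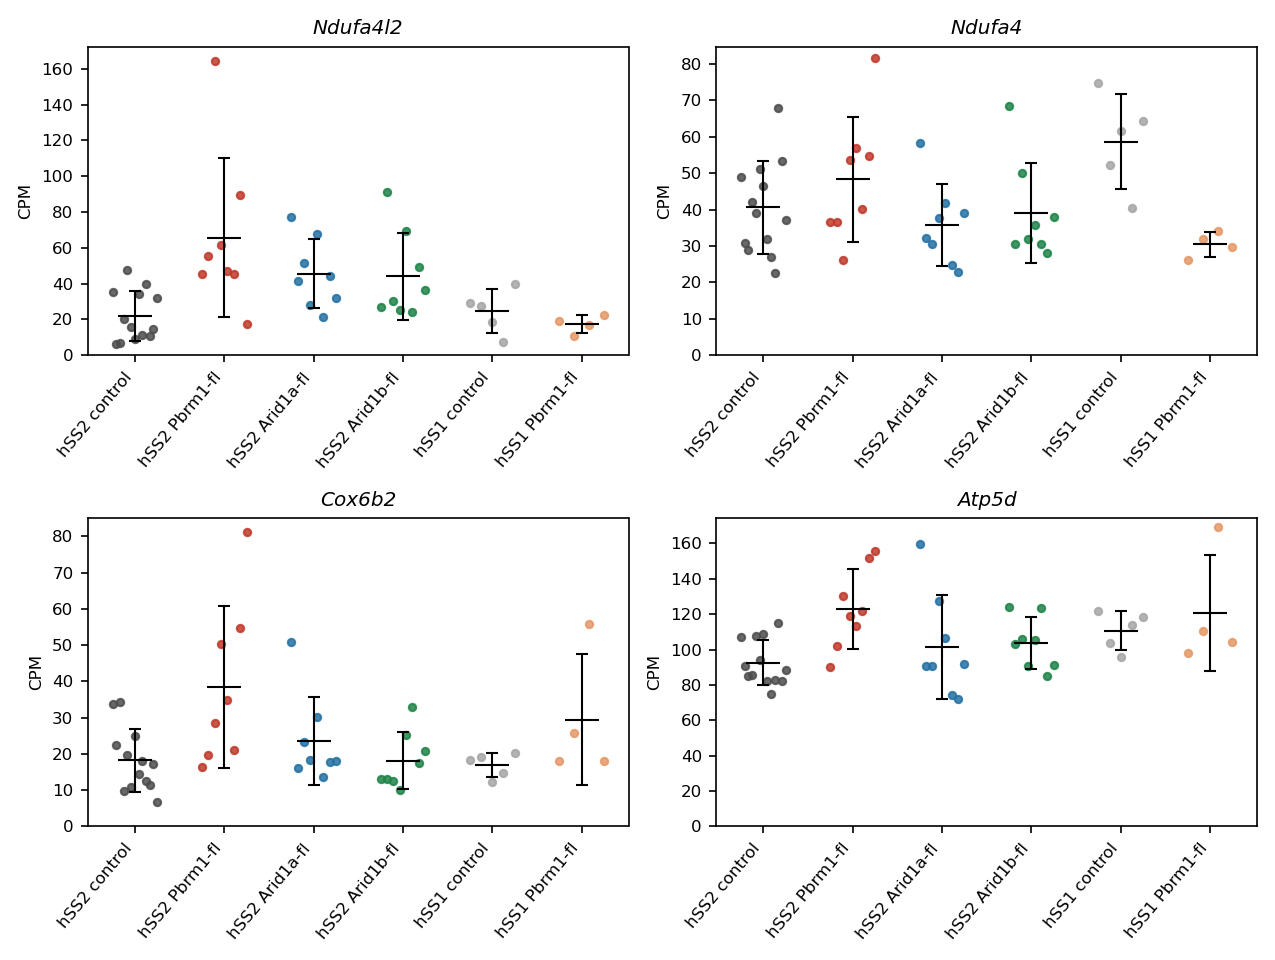
CPM of Ndufa4l2, its paralog Ndufa4, Cox6b2 and Atp5d in each tumour by genotype group; dots are tumours and bars the mean ± SD. Ndufa4l2 is spread most widely in hSS2 Pbrm1-fl, up to 164 CPM, and Ndufa4 has its lowest mean in hSS1 Pbrm1-fl, where tumours lie at 26.1 to 34.2 CPM.

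Most nuclear members of hSS2 Pbrm1-fl tumours had small positive log2 fold changes. By role, and counting the 3 that passed, positive log2 fold changes numbered 29 of 38 in complex I, 7 of 8 among its assembly factors, 4 of 4 in complex II, 8 of 8 in complex III, 10 of 16 in complex IV and 16 of 17 in ATP synthase. The medians were small, 0.12, 0.16, 0.20, 0.20, 0.08 and 0.13. In complex I, Ndufv1, which binds NADH, had 51.7, 60.3 and 103.8 CPM in control and 64.1, 76.0 and 87.2 in Pbrm1-fl tumours (0.29, adjusted p = 0.156), and Ndufs1, an iron-sulfur subunit, was at 0.02 (adjusted p = 0.938). In complex II, Sdha, the flavoprotein that oxidises succinate, had 186, 226 and 347 CPM against 216, 261 and 349 (0.23, adjusted p = 0.181), and the iron-sulfur subunit Sdhb was at 0.11. In complex III, the core protein Uqcrc1 was at 0.24 with 8 of 8 tumours above the control median (adjusted p = 0.349), the Rieske protein Uqcrfs1 at 0.08, and Uqcr11, a small subunit, at 0.52 (SE 0.19, adjusted p = 0.0918). For the catalytic beta subunit of ATP synthase, Atp5b, control tumours ran from 437 through 557 to 899 CPM and Pbrm1-fl tumours from 518 through 734 to 916 (0.34, adjusted p = 0.195), and its alpha partner Atp5a1 was at 0.15 (adjusted p = 0.572). The groups overlapped for every one of these genes.

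In Arid1a-fl tumours 0 members passed edgeR's test, where 3.17% of all genes were called. At an unadjusted p under 0.05 there were 7 (6 higher and 1 lower), 6.73% of members against 23.0% of all genes. DESeq2 called 1 member, Ndufa4l2 (log2 fold change 1.07, adjusted p = 0.0456), and 8.44% of all genes. Next to it stood Cox4i2, the form of subunit IV known from lung, with a mean of 2.22 CPM in Arid1a-fl against 1.24 in control tumours (0.84, adjusted p = 0.134), and Ndufa3 of complex I (0.34, adjusted p = 0.122). The nuclear median was 0.07. In Arid1b-fl tumours edgeR and DESeq2 both called 0 members, where 0.0548% of all genes were called by edgeR. At an unadjusted p under 0.05 edgeR had 2, 1.92% of members against 6.22% of all genes, and the nuclear median was again 0.07. The smallest p after Ndufa4l2 belonged to Cox5b of complex IV (0.36, adjusted p = 0.782) and Sdhc, a membrane anchor of complex II (0.26, adjusted p = 0.801).

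In the hSS1 set the nuclear genes of Pbrm1-fl tumours lay below control rather than above. Of 89 tested, 68 had negative log2 fold changes, with a median of -0.19 against 0.01 over all genes, and by role these were 29 of 38 in complex I, 3 of 4 in complex II, 8 of 8 in complex III, 10 of 14 in complex IV and 14 of 17 in ATP synthase, but 4 of 8 among the assembly factors (median -0.03). edgeR called 0 members, where 0.00562% of all genes were called, that is 1 gene. At an unadjusted p under 0.05 there were 18, all lower, or 17.6% of members against 17.2% of all genes, and DESeq2 called 7 lower, where it called 6.72% of all genes (4.06% lower). The groups did not overlap for 10 of 102 members, all lower in Pbrm1-fl, where this held for 3.54% of all genes. They included Ndufa4, Ndufa5, Ndufc1 and Ndufc2 of the Nduf genes, Cox5a, and Atp5e, Atp5c1, Atp5g3 and Atp5mpl of ATP synthase. Of the members on chromosome 6, Ndufa4 (chr6:11900292-11907497), Ndufa5 (chr6:24518666-24528013) and Ndufa9 (chr6:126821721-126849136) had log2 fold changes of -0.94, -0.66 and -0.57. Ndufb2, on the same chromosome (chr6:39592574-39603382), was at -0.05. Whether position on the chromosome has a part in these values was not tested.

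Ndufa4 had 74.8, 52.2, 61.6, 40.4 and 64.5 CPM in the 5 hSS1 control tumours and 26.1, 32, 34.2 and 29.8 in the 4 Pbrm1-fl tumours (log2 fold change -0.94, SE 0.19, adjusted p = 0.111 by edgeR and 0.000563 by DESeq2). Atp5e, the epsilon subunit of the ATP synthase stalk, had 41.2, 37, 36.2, 38.7 and 32 CPM against 21.9, 22.9, 29.2 and 21.8 (-0.63, SE 0.14, adjusted p = 0.121 by edgeR). Cox5a, a nuclear complex IV subunit, had 34.3, 33.2, 31, 29.6 and 35.9 CPM against 16.2, 17.7, 25.2 and 21.9 (-0.69, SE 0.16, adjusted p = 0.122 by edgeR). Each of the 4 Pbrm1-fl tumours thus lay under all 5 controls for these 3 genes, and the calls depended on the tool.

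Other members of the same complexes moved less evenly in hSS1. Sdha had 189, 180, 154, 189 and 168 CPM in control and 192, 175, 194 and 195 in Pbrm1-fl tumours (0.10), and Ndufv1 was at 0.11. Uqcrfs1 had 45.9, 39.1, 36.5, 38.7 and 33.7 CPM against 21.7, 24.6, 34.9 and 25.9 (-0.53, adjusted p = 0.184), and Atp5b had 775, 608, 676, 654 and 702 against 393, 446, 680 and 565 (-0.39, adjusted p = 0.292). In both of these genes Pbrm1-fl replicate 3 was within the control range and the other 3 tumours below it.

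**Figure D4:**
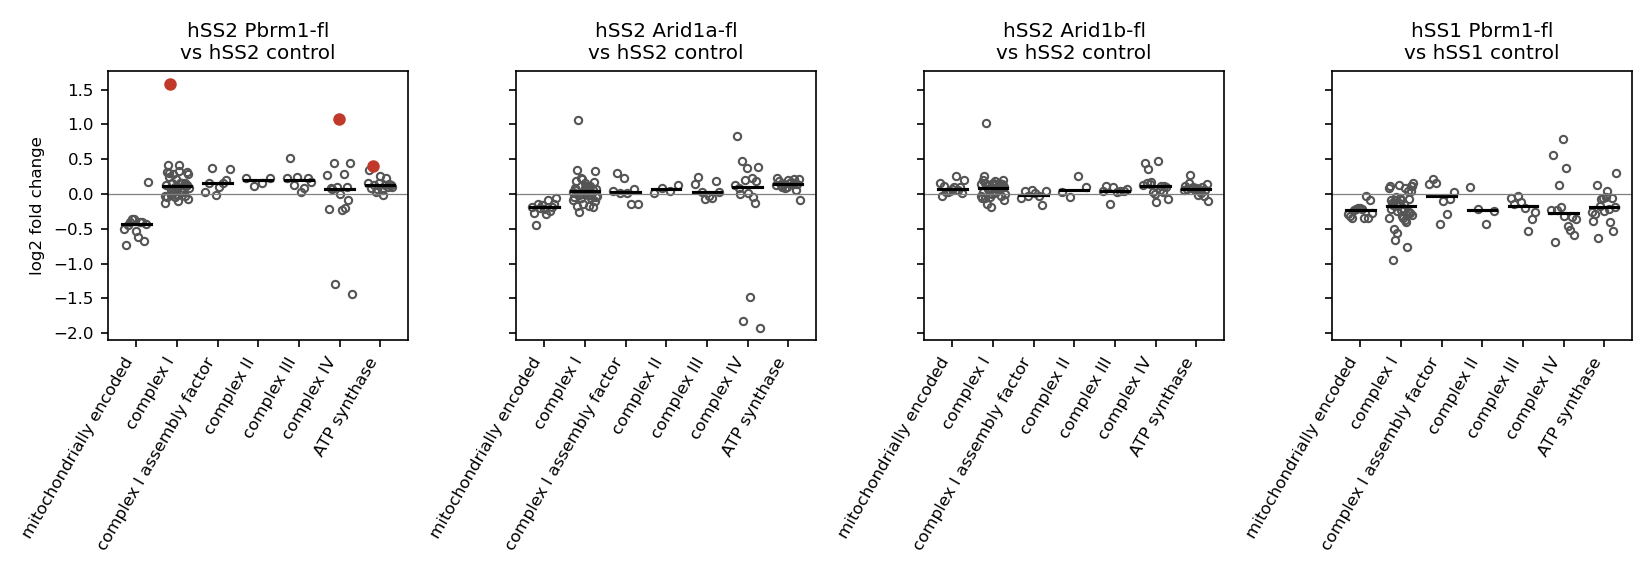
Log2 fold change of each tested oxidative phosphorylation gene, floxed against control, by role in the 4 comparisons; each point is a gene, filled red where edgeR called it, and lines mark the medians. In hSS2 Pbrm1-fl the medians of the nuclear roles sit above 0 and that of the mitochondrial genes below it, while in hSS1 Pbrm1-fl the nuclear median is -0.19 and the mitochondrial median -0.23.

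Whether the Pbrm1-fl effect differed between the fusions was tested as an interaction, hSS1 minus hSS2, in a joint fit of both tables. edgeR called 0 members, where 2.86% of all genes were called. At an unadjusted p under 0.05 there were 17, all lower in hSS1, which is 16.3% of members against 18.9% of all genes. DESeq2 called 2 members, Ndufa4 and Ndufa4l2, and 5.51% of all genes. By edgeR Ndufa4 had a difference of -1.20 (SE 0.35, adjusted p = 0.0507) and Ndufa4l2 of -2.08 (SE 0.67, adjusted p = 0.0742). Ndufa9, a complex I subunit, had a difference of -0.86 (SE 0.29, adjusted p = 0.0889). Ndufa4 and Ndufa9 both lie on chromosome 6, as do Ndufa5 (-0.65, edgeR adjusted p = 0.203) and Ndufb2 (-0.27, edgeR adjusted p = 0.601). The median difference was -0.32 over nuclear and 0.21 over mitochondrial genes, against 0.02 over all genes, and the mitochondrial value was 0.022 when controls were limited to the mouse number range of each Pbrm1-fl group.

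Titin (Ttn), the giant sarcomere protein of muscle fibres, was used to follow muscle RNA through the tumours. It ran from 9.93 through 6012 to 55340 CPM in hSS2 control tumours, from 6.78 through 289 to 20980 in Pbrm1-fl, from 5.43 through 1328 to 12620 in Arid1a-fl and from 4.56 through 4169 to 52360 in Arid1b-fl tumours. In hSS1 it was 3.19, 3781, 576, 10.6 and 6.81 CPM in control and 9.87, 5.98, 6.02 and 111 in Pbrm1-fl tumours. None of these differences passed the test (Pbrm1-fl -0.95, SE 1.53, adjusted p = 0.758 in hSS2; -4.72, SE 2.28, adjusted p = 0.325 in hSS1). The 20 skeletal muscle fibre markers summed to 43.8, 12790 and 120000 CPM in hSS2 control and 22.5, 584 and 42660 in Pbrm1-fl tumours, 0 of them was called in any genotype comparison, and every group had counts of all 20.

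Across the 37 hSS2 tumours, in a fit that also held genotype, 16 members rose and 6 fell with Ttn of 104 tested, where 28.8% of all genes were called (14.2% higher and 14.6% lower). All 13 mitochondrial genes were among the 16, but their slopes were shallow, 0.03 to 0.09 on the log2 scale for each doubling of Ttn (mt-Co1 0.07, mt-Cytb 0.05, mt-Nd6 0.03). The other 3 were the muscle forms of complex IV subunits. Cox8b had a slope of 0.98 (SE 0.03, adjusted p = 1.08e-23) and Cox6a2 of 0.92 (SE 0.03, adjusted p = 1.21e-22), close to the 1.01 of the muscle creatine kinase Ckm. Cox7a1 had 0.24 (SE 0.04, adjusted p = 2.61e-05).

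The 6 that fell with Ttn were Cox6b2 (slope -0.09), Cox6a1 (-0.07, adjusted p = 0.000653), Cox8a (-0.05), Ndufaf3 (-0.04), Atp5s (-0.03) and Ndufaf7 (-0.02). Cox6a1 and Cox8a are the ubiquitous partners of Cox6a2 and Cox8b. Ndufa4l2 (-0.03, adjusted p = 0.484), Sdha (0.00) and Atp5b (-0.01) were not called. Among the 13 hSS2 control tumours alone 15 members rose and 0 fell, where 3.77% of all genes tested rose. In hSS1, where only 2 of 9 tumours exceeded 111 CPM of Ttn, edgeR called 0 members at a background of 0.0169%. At an unadjusted p under 0.05 there were 3 (all positive, Sdhc and Ndufa10 among them), 2.94% of members against 3.64% of all genes.

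Markers of other cells moved with Ttn in hSS2 too. All 5 adipocyte markers (Adipoq, slope 0.64) and 6 of 7 macrophage markers (Mrc1, 0.18) were called higher and 4 of 5 endothelial markers lower. Of 4 brown adipocyte markers only 1, Dio2, was tested, and it was called higher (0.20, edgeR adjusted p = 0.0002). Of 5 erythroid markers 0 were called. The slope on Ttn thus takes in other cells than muscle fibres. With Ttn in the model of the hSS2 Pbrm1-fl comparison, Ndufa4l2 (1.49) and Cox6b2 (0.78) stayed called and Atp5d (0.36) was not.

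The muscle forms of complex IV were nearly absent from some tumours and abundant in others. Cox6a2 ran from 0 through 20.7 to 105 CPM in hSS2 control and from 0 through 0.591 to 35.9 in Pbrm1-fl tumours (log2 fold change -1.30, SE 1.34). Cox8b ran from 0 through 7.28 to 47.8 and from 0 through 0.184 to 11.2 CPM (-1.43, SE 1.34). In hSS1 control tumours Cox6a2 was at 0, 13.3, 2.06, 0.0715 and 0 CPM and Cox8b at 0.0887, 6.60, 0.600, 0 and 0, the highest in each case being the tumour with 3781 CPM of Ttn. All 4 hSS1 Pbrm1-fl tumours had 0 counts of Cox8b, and a count of 0 allows up to 3 counts in a library, here 0.267 to 0.296 CPM, by counting error only.

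Cox7a1 was less extreme, at 0.701, 4.60 and 28.7 CPM in hSS2 control, 3.06, 4.77 and 10.1 in Pbrm1-fl, 0.793, 1.67 and 4.82 in Arid1a-fl, and 0.813, 2.93 and 42.1 in Arid1b-fl tumours. No Pbrm1-fl tumour was without it, also where Cox6a2 and Cox8b were at 0. In single hSS2 control tumours Cox6a2 reached 74.4% of Cox6a2 and Cox6a1 together, and Cox8b 48.1% of Cox8b and Cox8a, while the mean shares of Cox6a2 were 29.3% in hSS2 control, 14.1% in Pbrm1-fl, 10.3% in Arid1a-fl, 27.9% in Arid1b-fl, 5.01% in hSS1 control and 0.0856% in hSS1 Pbrm1-fl tumours.

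**Figure D5:**
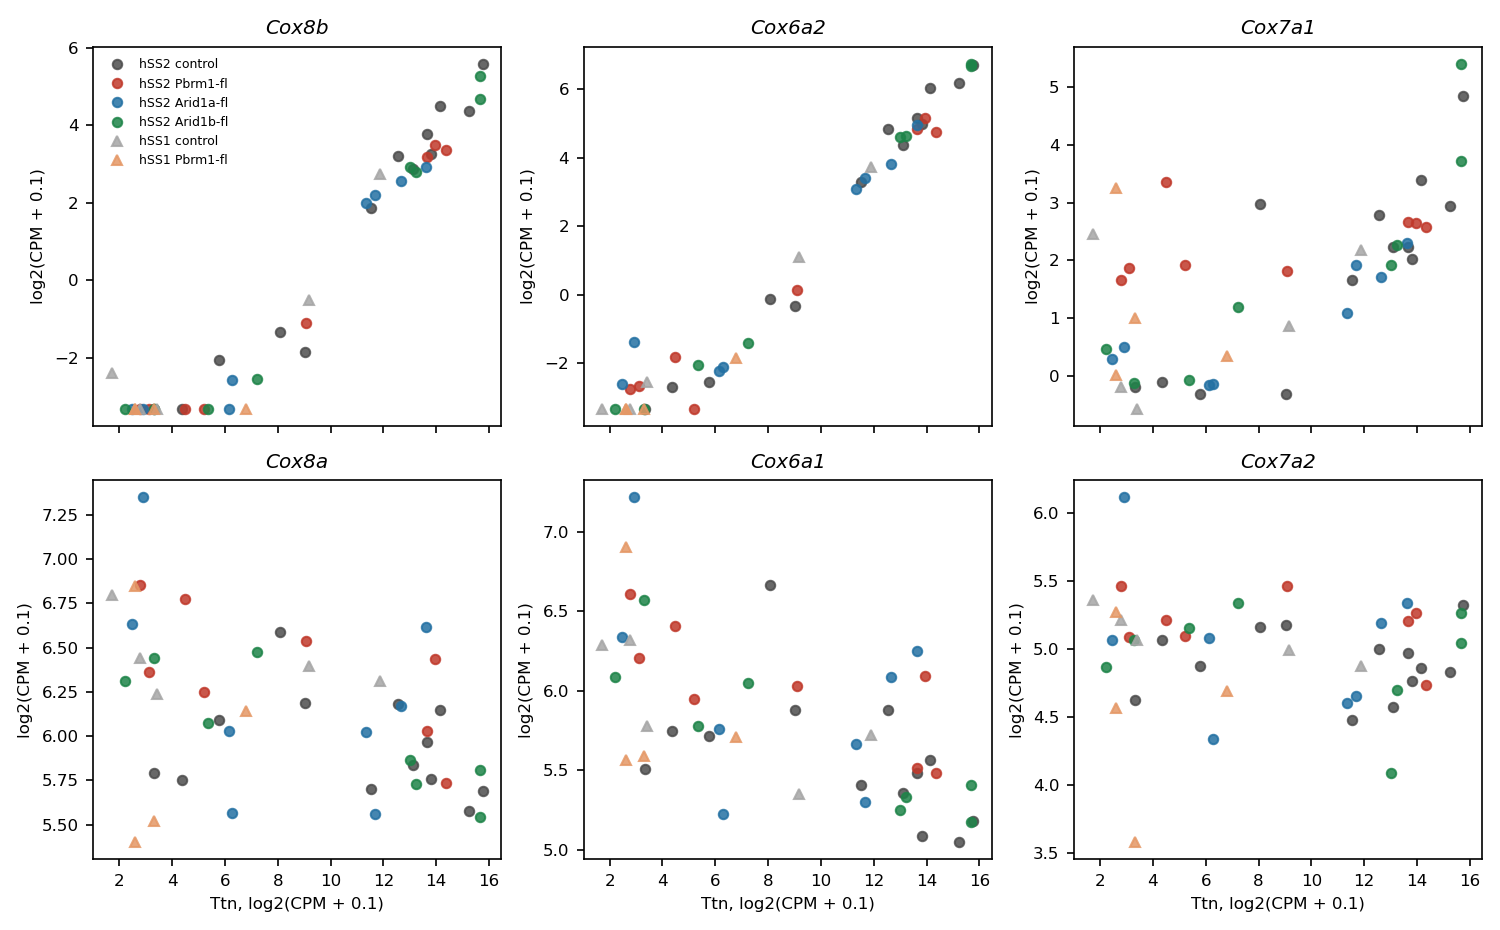
Log2(CPM + 0.1) of the muscle forms Cox8b, Cox6a2 and Cox7a1 and of their ubiquitous partners Cox8a, Cox6a1 and Cox7a2 against log2(CPM + 0.1) of Ttn; each point is a tumour, circles hSS2 and triangles hSS1, coloured by group. Cox8b and Cox6a2 climb nearly one for one with Ttn, Cox7a1 less steeply, and the partners stay flat or decline slightly.

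The promoters of 2 pairs of these isoforms are shown because the forms of a pair differ so widely in their slope on Ttn. They are the RefSeq windows from 250 bases before to 50 after the gene start (GRCm38.p6, written in the direction of transcription): Cox8b at chr7:140900397-140900696 (minus strand), Cox8a at chr19:7217567-7217866 (minus), Cox7a1 at chr7:30183921-30184220 (plus) and Cox7a2 at chr9:79759804-79760103 (minus). Capitals mark matches, on either strand, to the E-box CANNTG, the ETS motif CCGGAAG and the TATA motif TATAAA, none of which overlap here.
Cox8b: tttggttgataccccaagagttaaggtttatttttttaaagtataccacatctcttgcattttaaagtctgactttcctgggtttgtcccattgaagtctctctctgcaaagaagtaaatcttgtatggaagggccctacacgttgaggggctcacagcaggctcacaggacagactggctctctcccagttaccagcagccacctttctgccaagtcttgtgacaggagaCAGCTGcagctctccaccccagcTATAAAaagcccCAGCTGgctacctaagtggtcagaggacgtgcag
Cox8a: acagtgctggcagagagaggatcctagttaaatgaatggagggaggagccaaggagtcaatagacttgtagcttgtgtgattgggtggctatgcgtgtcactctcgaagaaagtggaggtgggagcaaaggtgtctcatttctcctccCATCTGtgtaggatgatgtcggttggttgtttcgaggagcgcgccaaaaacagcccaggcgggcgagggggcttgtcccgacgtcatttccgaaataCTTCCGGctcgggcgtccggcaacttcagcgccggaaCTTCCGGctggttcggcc
Cox7a1: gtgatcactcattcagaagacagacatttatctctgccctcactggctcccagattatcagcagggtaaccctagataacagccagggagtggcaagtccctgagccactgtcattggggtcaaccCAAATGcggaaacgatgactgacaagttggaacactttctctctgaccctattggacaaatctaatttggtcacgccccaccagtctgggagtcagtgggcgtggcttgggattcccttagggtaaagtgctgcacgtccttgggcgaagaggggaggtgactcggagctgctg
Cox7a2: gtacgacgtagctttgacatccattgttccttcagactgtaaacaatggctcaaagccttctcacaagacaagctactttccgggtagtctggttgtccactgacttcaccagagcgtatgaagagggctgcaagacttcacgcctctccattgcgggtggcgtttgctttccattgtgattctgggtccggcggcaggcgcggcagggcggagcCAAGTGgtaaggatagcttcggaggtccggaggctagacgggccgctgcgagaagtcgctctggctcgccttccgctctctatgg

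The Cox8b window holds 2 E-boxes, 1 TATA motif and 2 CpG, and that of Cox8a 1 E-box, 2 ETS motifs and 19 CpG. The Cox7a1 window holds 1 E-box and 7 CpG and that of Cox7a2 1 E-box and 20 CpG. Over 27025 RefSeq promoters the median was 7 CpG. Of the 107 genes 74 had a promoter in the table. The NRF1 motif was in 24.3% of these and in 4.78% of all promoters, the ETS motif in 23.0% against 9.12%, the E-box in 71.6% against 72.2%, the TATA motif in 9.46% against 14.2%, and the MEF2 motif in 2.7% against 3.70%. A match is a description of letters and not a bound site.

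Over the 37 hSS2 tumours Pearson's r between log2 Ttn and the mitochondrial sum was 0.640 (Spearman 0.646; 0.705 without the 2 tumours farthest in Ttn), and with the nuclear sum it was -0.0661. By group it was 0.847 in the 13 control tumours, 0.645 in Pbrm1-fl, 0.866 in Arid1b-fl and -0.235 in Arid1a-fl, where it became 0.606 without 2 tumours. With the nuclear sum the groups differed in sign, at 0.411 in control, -0.615 in Pbrm1-fl, 0.210 in Arid1b-fl and -0.371 in Arid1a-fl tumours (0.580 without 2). Over the 9 hSS1 tumours r between Ttn and the mitochondrial sum was -0.0227 (Spearman -0.40, and r -0.542 without the 2 farthest). The tumours share a library scale in these values, and no test is attached to them.

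Genes that serve the complexes from outside were examined as well. In hSS2 Pbrm1-fl tumours Esrra, a nuclear receptor that regulates mitochondrial genes, rose from 18.4, 28.1 and 36.8 CPM in control to 35.5, 42.2 and 60.4 (log2 fold change 0.64, SE 0.13, adjusted p = 0.00265). Polrmt, the mitochondrial RNA polymerase, also rose (0.45, adjusted p = 0.00916), as did Fastkd1 (0.32, adjusted p = 0.0429), which made 3 higher and 0 lower of 32 tested regulators and factors of mitochondrial gene expression, beside the 3.40% of all genes that rose in this comparison. The same background holds for the lists that follow, none of which was tested as a list. Calls in these lists come from the fit with all control tumours. They were not examined with controls of the same mouse number range, so range and genotype cannot be told apart in them. Ppargc1a (0.31, adjusted p = 0.443) and Tfam (-0.03, adjusted p = 0.890) did not pass.

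Of 37 other assembly factors 2 rose, Cox15 (0.33, adjusted p = 0.00847) and Pet100 (0.41, adjusted p = 0.0231), both of complex IV, and 0 fell. Of 28 genes of the TCA cycle and electron carriers 2 rose, Etfa and Etfb (0.64, adjusted p = 0.0318), the subunits of the electron transfer flavoprotein. Of 78 mitochondrial ribosomal proteins 2 rose (Mrps16 and Mrpl4) and 1 fell (Mrpl48, -0.37, adjusted p = 0.00884). In Arid1a-fl tumours Supv3l1 (0.30, adjusted p = 0.0343) and 4 of 78 mitochondrial ribosomal protein genes rose, where 1.41% of all genes did. In Arid1b-fl and hSS1 Pbrm1-fl tumours 0 genes of any of these lists passed edgeR's test. In the interaction, hSS1 minus hSS2, edgeR called 4 of 78 mitochondrial ribosomal protein genes lower (Mrpl19, Mrps35, Mrps14 and Mrpl53). Of 37 other assembly factors Ttc19 was called higher (0.86) and Nubpl lower (-1.21), where 2.86% of all genes were called.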

How the data were processed

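The authors aligned reads of stranded, ribosomal RNA-depleted libraries (NEBNext) to mm10 with STAR 2.7.11 and deposited whole-number counts per gene from featureCounts 1.6.3, unnormalized, in 1 table per fusion. The annotation release, the strand setting and the treatment of reads with several places were not given in the sources used here. Gene types, positions and exon lengths were taken from GENCODE M21, and promoters from RefSeq. All 46 count columns were matched to samples, and 0 were left unmatched.

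Each table was fitted over all genes with edgeR 4.0.16 (R 4.3.3, limma 3.58.1): filterByExpr on group, TMM factors, a robust quasi-likelihood test and Benjamini-Hochberg adjustment, called at 0.05. DESeq2 1.42.0 was the alternative tool. CPM are counts over library size times TMM factor, and a percent of counts uses the raw library total. The fits were also run on simulated data, whose outcome is not given here. The planted changes were larger than most of those reported, so that run says little about power for small changes. Tumours, 1 library each, are the replicates, so p-values measure the spread between tumours. The Ttn slope used log2 CPM of Ttn with genotype as a term. Other settings changed scaling, filter, tool, covariates (Ttn, mouse number range) and the controls, and left out each library.

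The members, gene lists and tests were chosen with earlier results of these data known. Genes were named by a rule: called members, otherwise the 3 with the smallest p, isoform pairs, catalytic subunits, and the steepest Ttn slopes. mt-Atp8, Uqcr11, Ndufb2 and the hSS1 genes whose groups did not overlap were named after their values were seen. Results of 1 member are not reported here, though it enters the counts and sums. A mean without Arid1a-fl replicate 1 was added after seeing the data.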

Additional observations from a re-analysis of the deposited data

Results flagged for a closer look

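In groups of 4 to 10 tumours, 15 values in the 105 groups checked stood far from the rest of their group, where chance sets apart about 1 group in 20. That rate is for independent normal values. The values checked were not logged, some lay near 0 and the genes share libraries, so no excess is read from the 15. Arid1a-fl replicate 1 accounts for 4 of them, with 0.862% of counts in the nuclear genes (0.382% to 0.591% in the other 7), and with 81.4 CPM of Atp5e, 79.0 CPM of Cox5a and 51 CPM of Cox6b2, each above the other tumours of its group. In hSS1 control replicate 2, the tumour with the most Ttn, Cox6a2 (13.3 CPM), Cox8b (6.60 CPM) and Cox4i2 (5.39 CPM) stood above the others. Cox7a1 stood apart at 10.1 CPM in hSS2 Pbrm1-fl replicate 7, at 42.1 CPM in Arid1b-fl replicate 1 and at 9.38 CPM in hSS1 Pbrm1-fl replicate 3. Cox5a was also high in Arid1b-fl replicate 1 (86.5 CPM), Cox6a2 in Arid1a-fl replicate 5 (31.3 CPM), Atp5e in hSS1 Pbrm1-fl replicate 3 (29.2 CPM) and Ndufa3 in hSS1 control replicate 5 (56.3 CPM). The 0.180 CPM of Cox6a2 in hSS1 Pbrm1-fl replicate 4 came from 2 counts beside 0 in the other 3 tumours.

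For 6 members reported here every hSS2 Pbrm1-fl tumour was above its control median and every hSS1 Pbrm1-fl tumour below its own. The share of all genes with this pattern was not counted, so the number is not a result about the list. The interaction, hSS1 minus hSS2 on the log2 scale, did not pass edgeR's test for any of them: Ndufa4l2 -2.08 (adjusted p = 0.0742), Sdhc -0.60 (adjusted p = 0.150), Atp5mpl -0.68 (adjusted p = 0.206), Atp5e -0.76 (adjusted p = 0.244), Uqcrfs1 -0.62 (adjusted p = 0.377) and Ndufs6 -0.39 (adjusted p = 0.422).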

How the results depend on the processing

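No result changed direction past its threshold, but small medians changed sign. The Arid1a-fl mitochondrial median (-0.19) ran from -0.30 to 0.05 over other settings. The Arid1b-fl one (0.08) ran from -0.06 to 0.12, and from -0.17 to 0.20 over libraries left out. The nuclear medians of Arid1a-fl and Arid1b-fl (0.07 each) went down to -0.05 and -0.03 without 1 library. The log2 ratios of Arid1b-fl and hSS1 Pbrm1-fl also changed sign that way. The cause of these moves and those below was not tested. The 3 members called in hSS2 Pbrm1-fl tumours became 0 with only the 4 controls numbered 2000 or above or with mouse number range as a covariate, 4 with DESeq2, 2 with Ttn as a covariate or without a filter, and 1 to 6 when 1 library was left out (1 without Pbrm1-fl replicate 7 or 8, 6 without control replicate 1). The member that DESeq2 added was mt-Atp8, which fell. Ndufa4l2 stayed called without any 1 of 37 libraries. Cox6b2 lost its call without Pbrm1-fl replicate 4, 7 or 8, and Atp5d without Pbrm1-fl replicate 3, 7 or 8 or control replicate 2, 3 or 9. The mitochondrial median there (-0.42) was -0.23 with Ttn as a covariate, -0.16 with those 4 controls and -0.15 with range as a covariate. The log2 ratio (-0.54) was -0.24 with them, a setting chosen after seeing the data. In Arid1a-fl tumours 1 member in place of 0 was called by DESeq2, with range as a covariate, and without Arid1a-fl replicate 6 (0 to 1 over libraries left out). In hSS1 Pbrm1-fl tumours DESeq2 called 7 in place of 0. The interaction called 2 with DESeq2, 1 with Ttn as a covariate, 1 with scaling that left out the mitochondrial genes, and 0 to 2 without 1 library (2 without hSS1 control replicate 4; 1 without hSS1 Pbrm1-fl replicate 3 or 4, hSS2 Pbrm1-fl replicate 1 or 3 or hSS2 control replicate 1, 11 or 12). Its mitochondrial median of 0.21 was 0.022 when controls were limited to the mouse number range of each Pbrm1-fl group. The Ttn slope in hSS1 called 1 without a filter, and in hSS2 its 22 members ranged from 15 to 24 over other settings and from 20 to 30 over libraries left out. A slope on Ckm in hSS1 was not run, since Ckm did not pass the filter. No paired analysis was possible because the labels give no replicate numbers shared between groups. Depth limits the muscle forms in hSS1, many at 0 counts. The levels of the 6 low mitochondrial genes are taken as uncertain, as said above, and mt-Nd3 had a median count of only 18 in hSS2.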
